A study of Mus musculus with 4 samples.

Results

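The circadian clock genes described here are 10 symbols: Arntl, Clock, Per1, Per2, Per3, Cry1, Cry2, Nr1d1, Nr1d2 and Dbp. They were chosen by name as core parts and an output of the molecular clock, with earlier results of these data known. All 10 were found among the 23259 gene symbols with a value in each of 4 RNA libraries. The libraries came from macrophages that had been cultured from bone marrow of 7-week-old C57BL/6 mice and stimulated for 24 h with the type 2 cytokine IL-4. Of these, 2 were labelled Sema6D-/-, a genotype with both copies of the membrane semaphorin gene Sema6d disrupted, and 2 were labelled wild type. All 4 received IL-4, and the labels name no untreated cells. The labels give neither the allele nor the hour of harvest and do not say whether the libraries of a label are separate mice, so the p-values refer to the spread between libraries, and that spread may be technical. The comparison asks whether the cultures of the labels differ in their clock genes.

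The clock is a feedback loop of transcription. CLOCK and BMAL1, the product of Arntl, bind E-box sequences and drive the Per and Cry genes, whose proteins then repress their own activators. The same pair drives Nr1d1 and Nr1d2, which encode REV-ERB nuclear receptors that repress Arntl, and Dbp, which encodes an activator that binds D-box sequences. In a running clock Arntl peaks in antiphase to Nr1d1 and Dbp, and macrophages are known to run such a clock in culture. REV-ERB receptors are also known as repressors of inflammatory genes in macrophages.

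Nr1d1 was the only one of the clock genes past the test, and it was higher in the libraries labelled Sema6D-/-. Dbp, Per3, Cry2, Arntl and Nr1d2 also had both Sema6D-/- libraries above both wild type libraries, and Cry1 had both below, but none of these 6 passed the test. Clock, Per1 and Per2 had overlapping libraries. Over all genes tested, 9.72% passed and 56.2% had libraries of the labels that did not overlap. Each culture was sampled once, so no phase of the clock could be computed.

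Promoter windows from RefSeq on GRCm38.p6, each the 250 bases before a transcript start, were found for 9 of the 10 genes. They were searched on both strands for the E-box CACGTG, the variant E-box CACGTT, the D-box TTATGTAA or TTACGTAA and AGGTCA, the core of the element that ROR and REV-ERB receptors bind. Sequence of 3 genes is shown, with the motifs in capitals: Nr1d1 as the gene past the test, Cry1 as the one gene lower in both Sema6D-/- libraries, and Per3 as the one gene with D-boxes. The window of Nr1d1 lies at chr11:98775378-98775627 on the minus strand and holds 1 variant E-box, read here as AACGTG, that starts 28 bases before the transcript start. The window of Cry1 lies at chr10:85185055-85185304 on the minus strand and holds an E-box 60 bases and a variant E-box 79 bases before the start. A stretch of the Per3 window at chr4:151044806-151044880 on the minus strand holds 2 D-boxes whose first bases lie 47 bases apart.
Nr1d1: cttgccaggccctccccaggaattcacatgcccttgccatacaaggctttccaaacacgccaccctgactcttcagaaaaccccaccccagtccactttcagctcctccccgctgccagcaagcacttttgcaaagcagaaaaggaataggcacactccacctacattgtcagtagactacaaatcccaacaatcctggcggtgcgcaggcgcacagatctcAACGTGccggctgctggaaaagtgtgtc
Cry1: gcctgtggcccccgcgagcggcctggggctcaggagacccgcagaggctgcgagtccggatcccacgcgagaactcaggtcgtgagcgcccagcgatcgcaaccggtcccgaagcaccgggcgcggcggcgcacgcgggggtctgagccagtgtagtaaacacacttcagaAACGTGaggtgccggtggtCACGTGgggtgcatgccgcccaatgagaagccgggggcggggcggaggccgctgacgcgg
Per3: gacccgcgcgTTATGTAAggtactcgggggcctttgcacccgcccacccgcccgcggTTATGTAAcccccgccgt

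Over all 32851 windows of this length, the E-box was in 6.02%, the variant E-box in 3.85%, the D-box in 0.93% and AGGTCA in 14.02%. Among the other clock genes, Per1 held an E-box and AGGTCA in 1 of its windows, Cry2 a variant E-box, and Nr1d2 and 1 window of Clock held AGGTCA. The windows of Arntl and Dbp held none of these letters, and sites elsewhere in those genes were not searched. These matches describe the sequence and are not measured binding sites.

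The targeted gene does not check the genotype here. Sema6d, on chromosome 2 from 124089943 to 124667789, was at 0.106 and 0.315 FPKM in the libraries labelled Sema6D-/-, against 0.166 and 0.389 in those labelled wild type. FPKM gives the number of fragments divided by transcript length and library size. The difference did not pass the test (limma adjusted p = 0.788 in a fit without a filter). The sample titles begin with W under the label Sema6D-/- and with K under the label wild type, so each direction is that of the libraries as labelled. An exchange of the labels would reverse every sign and leave each p as it is. Depth, estimated from the steps between low values, was about 8500000 and 8700000 fragments for Sema6D-/- and 9200000 and 9500000 for wild type. All 9 macrophage markers, among them Csf1r and Cd68, were detected in each library. Of these 9, limma called 1 higher and 3 lower, 44.4% against 9.72% of all genes tested. Adgre1 was higher (limma adjusted p = 0.0056), and Itgam (0.0096), Lyz2 (0.017) and Cd14 (0.002) were lower. Neutrophil markers were higher in the libraries labelled Sema6D-/-, with all 11 found not overlapping, where 28.8% of all genes tested did so in that direction, and a summed level of 756 and 617 FPKM, against 205 and 193 in wild type. Lymphocyte markers summed to less than 1 FPKM in every library, with Ncr1 at 0 in all 4. Of 2 dendritic cell markers tested, limma called 1 lower, Itgax (adjusted p = 0.011), and of 3 stromal cell markers tested it called 0. Of 7 proliferation markers tested, it called Pcna higher (0.0031) and Mki67 lower (0.0307), 28.6% against 9.72% of all genes tested. The part of other cells and of proliferation in the results below was not tested. In RNA of whole cultures, fewer cells of a type and less RNA per cell cannot be told apart.

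**Figure D1:**
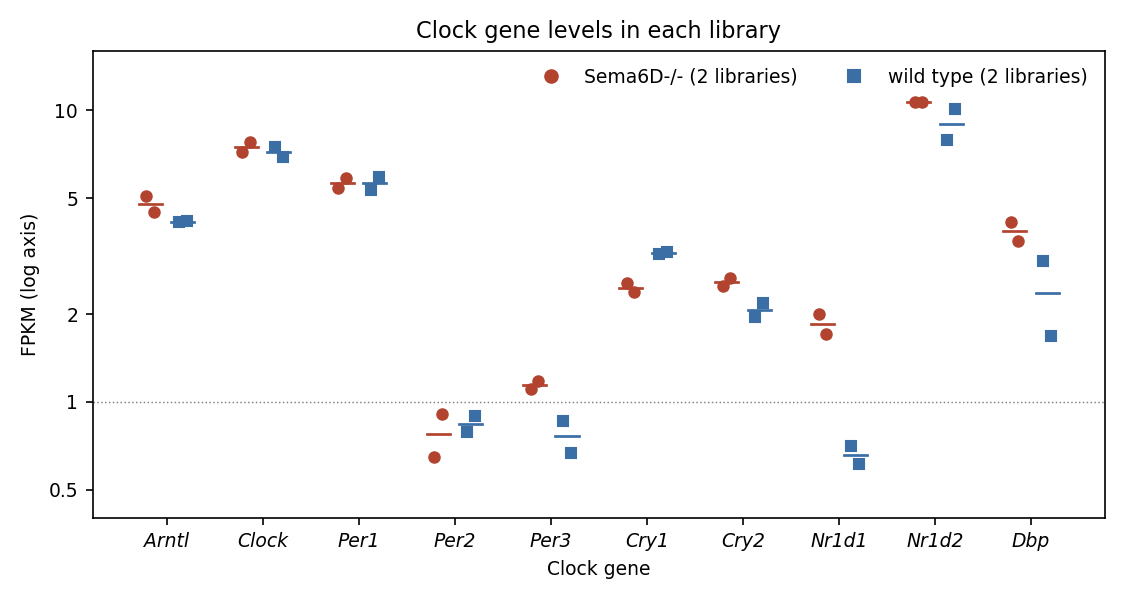
FPKM of each clock gene (log axis) in the libraries labelled Sema6D-/- (circles) and wild type (squares), with the mean of each label as a bar and 1 FPKM as a dotted line. Nr1d1 sits at 2.0 and 1.71 FPKM in Sema6D-/- and at 0.707 and 0.61 in wild type, while Clock and Per1 overlap.

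Clock genes were expressed at low to moderate levels. Their means over the 4 libraries lay between 0.807 FPKM for Per2 and 9.83 for Nr1d2, all below the median of 13 FPKM of the 10115 genes tested, which are those with a mean of at least 1 FPKM. In the libraries labelled Sema6D-/- the order from high to low was Nr1d2, Clock, Per1, Arntl, Dbp, Cry2, Cry1, Nr1d1, Per3 and Per2, and of the neighbours in it Cry2 and Cry1 alone overlapped. In those labelled wild type the order was Nr1d2, Clock, Per1, Arntl, Cry1, Dbp, Cry2, Per2, Per3 and Nr1d1. There Dbp overlapped Cry2, Per2 overlapped Per3, and Per3 overlapped Nr1d1. The 4 highest genes thus stood in 1 order under both labels, and Nr1d1 stood eighth in Sema6D-/- and last in wild type.

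Of the 10 genes, 8 had a mean of at least 1 FPKM and were tested by limma on log2(FPKM + 1), with p-values adjusted over all genes. Nr1d1 was called higher and no clock gene was called lower, so 1 of 8 passed, against 9.72% of all genes tested, with 4.8% called higher and 4.91% lower. A share of 1 in 8 is near that background. At an unadjusted p under 0.05 there were 3 of the 8, Nr1d1, Cry1 and Dbp, where 25.1% of all genes tested were under 0.05. Libraries of the labels did not overlap for 6 of the 8, with 5 higher and 1 lower, against 56.2% of all genes tested, with 28.8% higher and 27.4% lower. The median difference of the 8 genes was 0.19 in log2(FPKM + 1), beside 0.00 over all genes tested (0.0029 before rounding).

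**Figure D2:**
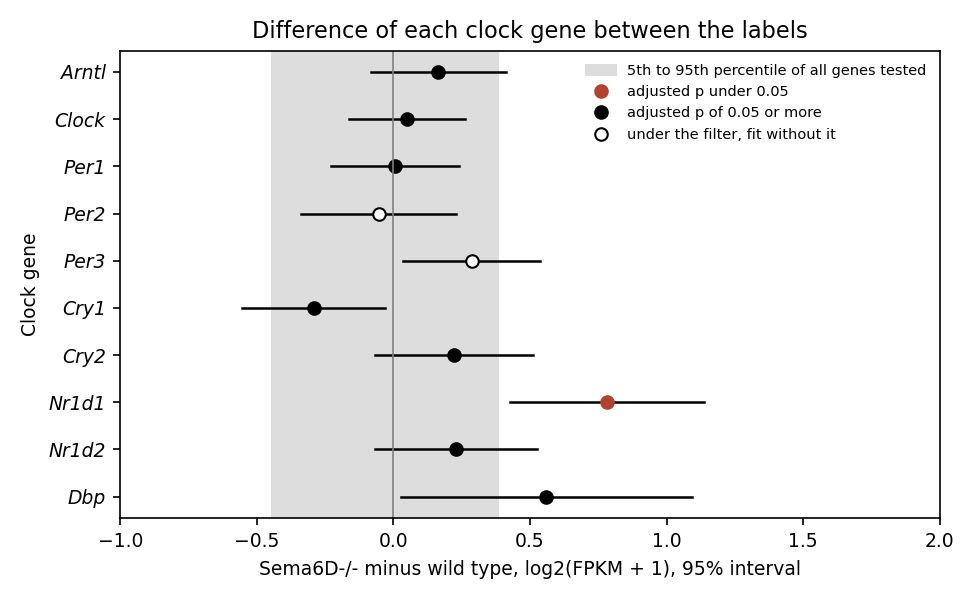
Difference of each clock gene, Sema6D-/- minus wild type, in log2(FPKM + 1) with its 95% interval from limma; the grey band spans the 5th to 95th percentile of all genes tested (-0.44 to 0.38), and open circles are genes under the filter. Nr1d1 at 0.78 and Dbp at 0.56 lie beyond the band, and the interval of Dbp reaches down to 0.026.

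The REV-ERB genes stand in the repressing arm of the loop. Nr1d1, on chromosome 11 from 98767932 to 98775377 in GRCm38, was at 2.0 and 1.71 FPKM in the libraries labelled Sema6D-/- and at 0.707 and 0.61 in those labelled wild type. Both Sema6D-/- libraries were above both wild type libraries. The mean was 1.86 ± 0.20 in Sema6D-/-, against 0.658 ± 0.069 in wild type (SD, n = 2 each), which is 2.82-fold higher. The difference was 0.78 ± 0.14 (SE) in log2(FPKM + 1), larger than that of 96.6% of genes tested in absolute size, with limma adjusted p = 0.0304.

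The Nr1d1 call rests on few fragments and on all 4 libraries. By the estimated depth its values equal about 46 and 41 fragments in Sema6D-/- and about 18 and 16 in wild type. It passed the filter through the Sema6D-/- libraries, where it was high, and in a fit without a filter, which called 3.44% of 14653 genes, limma adjusted p was 0.0436. With any 1 library left out it no longer passed, and adjusted p was 0.148 without Sema6D-/- replicate 1, 0.0903 without Sema6D-/- replicate 2, 0.0673 without wild type replicate 1 and 0.0848 without wild type replicate 2. The difference itself stayed between 0.71 and 0.86 in those fits.

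Thra, the gene of thyroid hormone receptor alpha, runs on the opposite strand and shares 263 exon bases with Nr1d1. It was at 11.7 and 11.4 FPKM in Sema6D-/- and at 10.3 and 11.4 in wild type, with adjusted p = 0.554. The library kit keeps the strand, but the strand setting of the quantification is not given in the sources used here. Reads of both genes over the shared bases may therefore not be separated.

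Nr1d2, on chromosome 14 from 18204056 to 18239106, encodes the paralogue REV-ERB beta and was the most abundant of the clock genes. It was at 10.65 and 10.65 FPKM in Sema6D-/-, against 7.90 and 10.1 in wild type. The wild type libraries were 1.28-fold apart, and the upper one was near the Sema6D-/- level. The difference of 0.23 ± 0.12 (SE) did not pass (limma adjusted p = 0.307), and it was 0.068 without wild type replicate 1 and 0.39 without wild type replicate 2 (limma adjusted p = 0.0868).

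Dbp, on chromosome 7 from 45705100 to 45710203, encodes the D-box activator that serves as a readout of CLOCK and BMAL1 activity. It was at 4.15 and 3.57 FPKM in the libraries labelled Sema6D-/- and at 3.04 and 1.68 in those labelled wild type. The groups did not overlap, but the wild type libraries were 1.81-fold apart, the widest spread within a label among the 10 genes. Mean Dbp was 3.86 ± 0.41 in Sema6D-/- and 2.36 ± 0.96 in wild type (SD, n = 2 each), or 1.63-fold higher, and the difference of 0.56 ± 0.21 (SE) did not pass (limma adjusted p = 0.184). It was 0.86 and passed without wild type replicate 1 (limma adjusted p = 0.0407), and it was 0.26 and did not pass without wild type replicate 2 (limma adjusted p = 0.381). By the estimated depth Dbp had about 65 and 57 fragments in Sema6D-/- and about 52 and 29 in wild type. Sphk2, a sphingosine kinase gene on the opposite strand, shares 539 of the 1837 exon bases of Dbp. It was at 35.0 and 36.6 FPKM in Sema6D-/-, against 34.5 and 32.9 in wild type. As for Nr1d1 and Thra, reads over the shared bases may not be separated.

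The cryptochrome genes, whose proteins repress CLOCK and BMAL1, went opposite ways without passing the test. Cry1, on chromosome 10 from 85131700 to 85185054, was at 2.55 and 2.38 FPKM in Sema6D-/-, against 3.22 and 3.26 in wild type. The libraries were well separated, with a spread of 1.07-fold within Sema6D-/- and 1.01-fold within wild type. The difference was -0.29 ± 0.10 (SE), with limma adjusted p = 0.162, and it stayed between -0.33 and -0.26 with any 1 library left out. Cry2, on chromosome 2 from 92403646 to 92434085, was at 2.49 and 2.66 FPKM in Sema6D-/-, against 1.96 and 2.18 in wild type. Its difference was 0.22 ± 0.12 (SE), with limma adjusted p = 0.308.

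The Period genes, which encode the partners of the cryptochromes, showed no common direction. Per3, on chromosome 4 from 150997018 to 151044707, was at 1.11 and 1.18 FPKM in Sema6D-/- and at 0.858 and 0.667 in wild type. Groups did not overlap, and the ratio of the means was 1.503. With a mean under 1 FPKM it was read from the fit without a filter, where the difference was 0.29 ± 0.091 (SE) and limma adjusted p = 0.202. Among the 13 tested genes within 1 Mb of Per3, limma called 0, against 9.72% of all genes tested, and 1 had an unadjusted p under 0.05, against 25.1%. Around the other clock genes, the same count was 5 higher and 1 lower of 48 for Dbp, 0 and 3 of 45 for Per1, 0 and 2 of 27 for Nr1d1 and at most 1 for the rest.

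Per1, on chromosome 11 from 69095108 to 69109965, responds quickly to glucocorticoid and cAMP signals in addition to the clock. It was at 5.43 and 5.84 FPKM in Sema6D-/- and at 5.33 and 5.90 in wild type. The libraries overlapped, and the difference of 0.0054 had a 95% interval of -0.23 to 0.24. Per2, on chromosome 1 from 91415977 to 91459351, was at 0.645 and 0.905 FPKM in Sema6D-/- and at 0.786 and 0.891 in wild type. Its difference in the fit without a filter was -0.054, with an interval of -0.34 to 0.23. At about 32 to 49 fragments per library, a small Per2 difference was not detectable.

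The activator genes differed little. Arntl, on chromosome 7 from 113178471 to 113314126, was at 5.07 and 4.48 FPKM in Sema6D-/-, against 4.13 and 4.17 in wild type. Groups did not overlap, and the difference of 0.16 ± 0.099 (SE) did not pass (limma adjusted p = 0.375). Without Sema6D-/- replicate 1 it was 0.089. Clock, on chromosome 5 from 76209868 to 76305603, was at 7.20 and 7.79 FPKM in Sema6D-/- and at 7.48 and 6.94 in wild type, with overlapping libraries. Its difference was 0.049, with a 95% interval of -0.16 to 0.26.

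**Figure D3:**
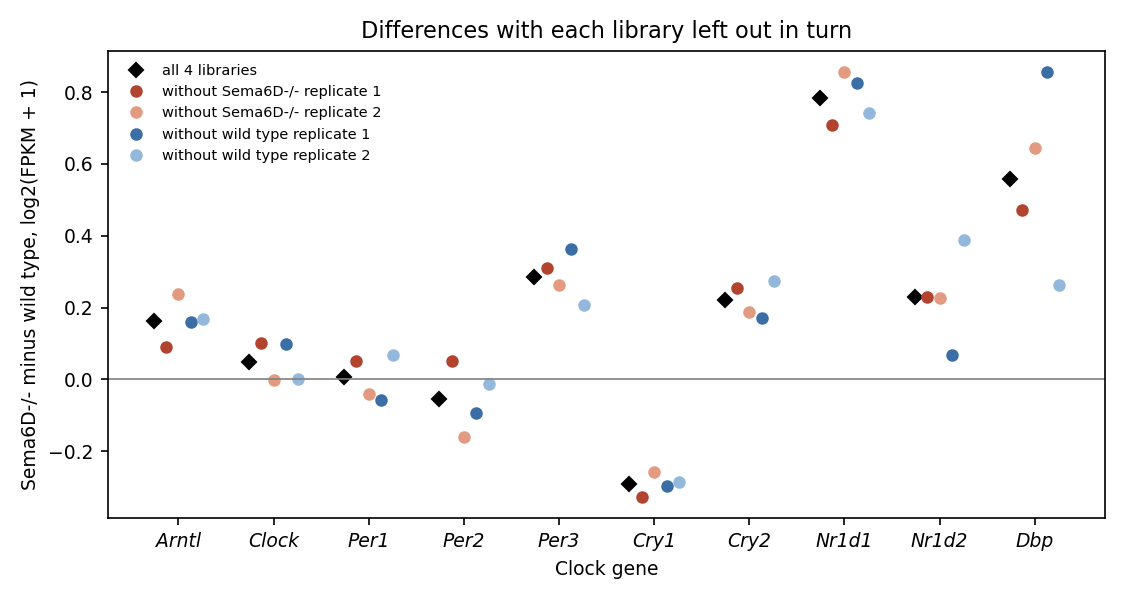
Difference of each clock gene, Sema6D-/- minus wild type in log2(FPKM + 1), over all 4 libraries (diamonds) and with each library left out (circles); Per2 and Per3 come from fits without a filter. Nr1d1 stays between 0.71 and 0.86 and Cry1 between -0.33 and -0.26, while Dbp ranges from 0.26 to 0.86 and Clock, Per1 and Per2 change sign.

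The level of 1 clock gene relative to another in the same library depends little on how that library was scaled, so 5 pairs of genes that peak at different times in a running clock were compared within each library. On the log2(FPKM + 1) scale, Nr1d1 was below Arntl by the same amount in both Sema6D-/- libraries, at -1.02 and -1.02, against -1.59 and -1.68 in wild type. The labels were separated by 0.62 on average, a gap that was 1.17 with a pseudocount of 0.1 and 0.18 with one of 5, since Nr1d1 is near 1 FPKM. Dbp relative to Arntl was at -0.24 and -0.26 in Sema6D-/-, against -0.34 and -0.95 in wild type. Wild type replicate 1 was thus much nearer to the Sema6D-/- libraries than to the other wild type library.

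Pairs with the Period genes gave a mixed picture. Per2 relative to Arntl was at -1.88 and -1.52 in Sema6D-/- and at -1.52 and -1.45 in wild type. The nearest values of the labels were almost equal, and the gap of -0.22 between the means was under the SD of 0.25 within Sema6D-/-. Per3 relative to Arntl was at -1.53 and -1.33 in Sema6D-/- and overlapped wild type at -1.47 and -1.63. Per2 relative to Cry1 was at -1.11 and -0.83 in Sema6D-/-, against -1.24 and -1.17 in wild type. Here the labels did not overlap, and the gap of 0.24 between the means was above the SD of 0.20 within Sema6D-/-. With 2 libraries a label, an exact two-sided permutation test cannot go below p = 0.333, so these values are given as a description.

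**Figure D4:**
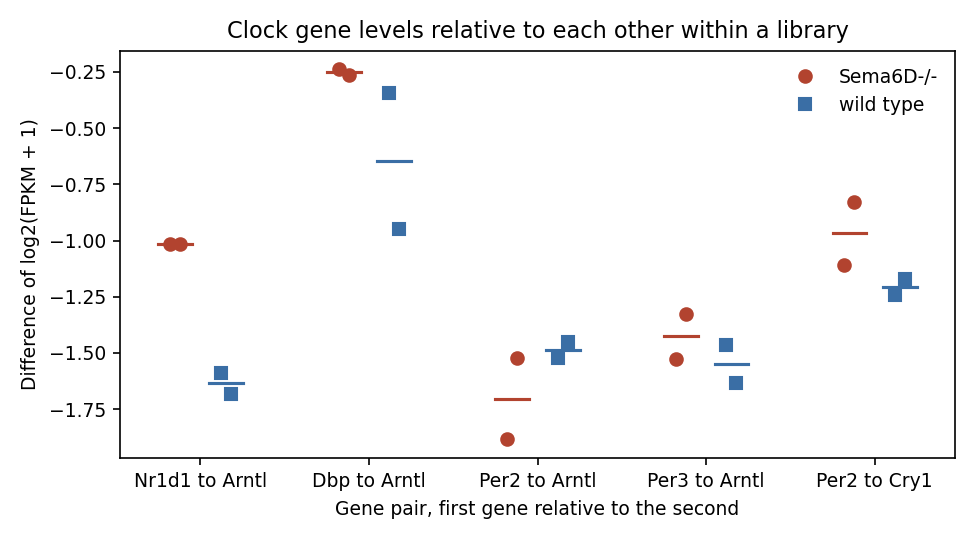
Level of 1 clock gene relative to another within each library, as the difference of their log2(FPKM + 1) values, for libraries labelled Sema6D-/- (circles) and wild type (squares), with the mean as a bar. Nr1d1 relative to Arntl is at -1.02 in both Sema6D-/- libraries and at -1.59 and -1.68 in wild type, while Per3 relative to Arntl overlaps.

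Of 11 other factors of the loop, 5 were tested and 1 was called, where 9.72% of all genes tested were called. Bhlhe41, which encodes the E-box repressor DEC2, fell to 13.4 and 15.3 FPKM in Sema6D-/-, against 22.2 and 23.2 in wild type. The difference was -0.63 ± 0.080 (SE, limma adjusted p = 0.0121), a call lost without Sema6D-/- replicate 1 (adjusted p = 0.0612). Its paralogue Bhlhe40 was the most abundant loop factor, at 93.5 and 96.8 FPKM in Sema6D-/-, against 108 and 102 in wild type, and did not pass (limma adjusted p = 0.165). The D-box repressor gene Nfil3 was at 34.2 and 34.6 FPKM in Sema6D-/- and 31.7 and 34.2 in wild type. Among the relatives of Dbp, Tef was at 15.3 and 15.02 FPKM in Sema6D-/-, against 11.5 and 14.2 in wild type, and Hlf was at or near 0 in every library. In FPKM, which is per length, Nfil3 was above Tef and Dbp in each of the 4 libraries. Ciart, an E-box-driven repressor gene with 3 E-boxes in its promoter window, was at 0.741 and 0.536 FPKM in Sema6D-/- and overlapped wild type at 0.847 and 0.414. Rora, an activator of Arntl, was at 1.302 and 1.404 FPKM in Sema6D-/- and at 1.68 and 1.37 in wild type, and Rorb was listed at 0 in all 4.

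The enzymes and cofactors that act on clock proteins were compared with all genes tested, of which 9.72% were called and 25.1% had an unadjusted p under 0.05. Of 13 tested genes for kinases and protein turnover, limma called 0, with 1 at an unadjusted p under 0.05, and their differences lay between -0.092 and 0.16. The smallest p-values there belonged to Csnk2a1, a casein kinase gene (12.7 and 12.2 FPKM in Sema6D-/-, against 11.1 and 11.0 in wild type, limma adjusted p = 0.199), and Gsk3b (17.4 and 16.5 in Sema6D-/-, against 15.5 and 15.2 in wild type, limma adjusted p = 0.264). Of 15 cofactor genes, limma called 0, with 3 at an unadjusted p under 0.05, and their differences lay between -0.55 and 0.19. The largest was that of Timeless, at 1.04 and 0.557 FPKM in Sema6D-/-, against 1.65 and 1.57 in wild type (limma adjusted p = 0.132). It passed the filter through the wild type libraries, where it was high. Sfpq, a partner of PER proteins, was at 55.1 and 56.3 FPKM in Sema6D-/-, against 47.5 and 49.7 in wild type (limma adjusted p = 0.0753), and the acetyltransferase gene Ep300 at 18.4 and 18.3 in Sema6D-/-, against 20.9 and 21.0 in wild type (limma adjusted p = 0.11).

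Genes known as clock outputs were called in both directions. Of 9 tested, 3 rose and 2 fell, 55.6% against 9.72% of all genes tested, and their median difference was -0.027. The list was chosen with earlier results of these data known, so this share is not a test of clock outputs. Tspan4, a tetraspanin gene, rose to 67.7 and 60.7 FPKM in Sema6D-/-, against 40.3 and 44.4 in wild type (limma adjusted p = 0.0127). Por, cytochrome P450 reductase, rose to 123 and 108 FPKM in Sema6D-/-, against 82.6 and 80.1 in wild type (limma adjusted p = 0.0158). Klf10, a zinc finger repressor gene, rose to 29.7 and 29.5 FPKM in Sema6D-/-, against 24.1 and 25.2 in wild type (limma adjusted p = 0.0473). Alas1, the first enzyme of haem synthesis, fell to 216 and 237 FPKM in Sema6D-/-, against 317 and 312 in wild type (limma adjusted p = 0.01). Pnp, a purine enzyme, fell to 30.7 and 31.3 FPKM in Sema6D-/-, against 40.4 and 37.3 in wild type (limma adjusted p = 0.0342). Without Sema6D-/- replicate 1 none of these 5 passed, with limma adjusted p-values of 0.0734 for Tspan4, 0.0608 for Por, 0.216 for Klf10, 0.0516 for Alas1 and 0.179 for Pnp. Klf10 also lost its call without any other library and Pnp without Sema6D-/- replicate 2 or wild type replicate 1.

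Of 9 genes for inputs to the clock, limma called 0, with 2 at an unadjusted p under 0.05, against 9.72% and 25.1% of all genes tested. Sik1, a kinase gene induced by cAMP that limits clock resetting, was at 2.43 and 2.52 FPKM in Sema6D-/-, against 0.14 and 1.17 in wild type, with the wild type libraries far apart. It passed the filter through the Sema6D-/- libraries, where it was high. Its difference of 1.14 did not pass (limma adjusted p = 0.0867, and 0.178 in a fit without a filter). It was 0.68 without wild type replicate 1 (limma adjusted p = 0.0768) and 1.61 without wild type replicate 2, where it passed (limma adjusted p = 0.0111). Fkbp5, a glucocorticoid target, was at 5.44 and 5.73 FPKM in Sema6D-/-, against 7.57 and 7.36 in wild type (limma adjusted p = 0.0516), and it passed with a pseudocount of 0.1 (0.046) or robust eBayes (0.0389), while Tsc22d3, another glucocorticoid target, overlapped at 30.9 and 27.8 in Sema6D-/- and 26.4 and 31.0 in wild type. Over the 5 lists together, 3 genes rose and 3 fell of 51 tested, which is 11.8%, near the 9.72% of all genes.

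The genes whose 4 values ran closest to Arntl and Dbp were found by the Euclidean distance between centred log2(FPKM + 1) values over the 4 libraries, among all genes tested. Nearest to Arntl were Csrp2bp (distance 0.0089), Slc17a5 (0.016) and Brp44 (0.024). Nearest to Dbp were Wtip (0.034), Bdh2 (0.05) and 2310009B15Rik (0.1). None of these genes passed the test by limma, where 9.72% of all genes did. They were picked for values close to those of Arntl and Dbp, which did not pass, so this outcome was set by the choice. With 4 libraries, such closeness describes these samples only.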

How the data were processed

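RNA was measured in 4 libraries, 2 labelled Sema6D-/- and 2 labelled wild type, made with a strand-specific SureSelect kit (labels' protocols). The authors deposited 1 FPKM value per gene, written by Cuffnorm 2.2.1, which scales libraries to each other. Per the submitters' processing notes, SAMtools 0.1.19, TopHat2 2.0.13 and Bowtie2 2.2.3 were used with build mm10. The annotation and the strand setting were not given in the sources used here. Each file held 23284 symbols, and 25 without a value were left out. An exact 0 can be a failed estimate. Groups follow the genotype label.

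The test of each difference, Sema6D-/- minus wild type, was that of limma 3.58.1 (R 4.3.3, intensity trend, two-sided) on log2(FPKM + 1), a scale that understates the change of low genes, for 10115 genes, those whose mean reached 1 FPKM. Benjamini-Hochberg adjustment ran over all genes tested, with a threshold of 0.05, and members under the filter were read from a fit without it. The script was tested on simulated data. Changes were planted there only in genes above about 5 FPKM, so that test did not cover genes as low as Nr1d1. The clock genes and all lists were chosen with earlier results of these data known. The 5 related lists hold 58 genes, all found, 2 by an older symbol. Genes named beyond the clock genes are those of each list past the test and the 3 nearest to Arntl and Dbp. Where fewer than 2 of a list passed, those with the smallest p up to 2 were named. Nfil3, Tef, Hlf, Ciart, Rora, Rorb, Timeless, Tsc22d3, Thra, Sphk2 and single markers were named after their values were seen. Depth was estimated from the low values and GENCODE M21 exon lengths and is approximate, and the number of fragments limits precision. Positions and promoter windows are from RefSeq on GRCm38.p6, the assembly that mm10 names. Alternatives were each library left out, the title number as a block, robust eBayes, eBayes with no trend, quantile normalization, median-of-ratios scaling, a minimum mean of 5 FPKM, no minimum, and pseudocounts of 0.1 and 5.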

Additional observations from a re-analysis of the deposited data

How the results depend on the processing

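The clock gene call, 1 higher and 0 lower, kept its count with pseudocounts of 0.1 and 5, without a filter, under both scalings and with both other forms of eBayes. It was 0 with a mean of at least 5 FPKM, where 3 clock genes remain and Nr1d1 is not among them. With 1 library left out the count was 0 to 1, and the 1 was Dbp, not Nr1d1. In these fits a lone library is assumed to vary like the others. Libraries with the same title number shared no deviation over all genes (correlation -0.018). With 2 libraries a label this cannot show whether they were made in pairs. With the replicate block the count of clock genes higher was 0 (Nr1d1 adjusted p = 0.0598), and 300 genes were higher against 486 without the block. Differences changed sign with 1 library left out for Clock (-9e-04 to 0.0999), Per1 (-0.0568 to 0.0676), Per2 (-0.16 to 0.0518) and Sema6d (-0.2039 to 0.0487). Of 121 alternative values for the clock genes, 111 kept direction and side of the threshold. That count includes the clock genes that had no call to lose. Nr1d1, the only one called in the main fit, passed in 7 of its 12 alternatives. The Per3 to Arntl difference between labels, 0.12, was 0.34 with a pseudocount of 0.1 and -0.0017 with one of 5. Over all genes, 486 higher and 497 lower became 256 and 248 with no filter, 261 and 327 under eBayes with no trend, and 117 to 316 and 151 to 342 with 1 library left out; the cause was not tested. Related clock genes, 3 higher and 3 lower, were 1 higher without a filter or without trend, and 0 to 3 higher and 0 to 3 lower with 1 library left out. They were 4 lower with a pseudocount of 0.1 or robust eBayes, where Fkbp5 gained a call. Klf10 also lost its call without a filter, under both scalings, without trend and with the block, Pnp without a filter, without trend and with the block, and Por without a filter (adjusted p = 0.0544) or without trend (0.0505). At about 16 to 62 fragments per library for Nr1d1, Per2 and Per3, small differences of these genes were not detectable.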
